A study of Mus musculus with 4 samples.

Results

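Dlk1, Meg3, Rian, Mirg and Rtl1 are 5 transcripts of an imprinted region on mouse chromosome 12, out of 32289 features in the count tables. They were matched by gene symbol, and each of the 5 had a feature in all 4 libraries. The set was chosen by the level of Dlk1, which was already known to stand higher in the libraries labelled tamoxifen, so the values of Dlk1 between treatments are given as a description. The question addressed was whether Dlk1 and the non-coding transcripts of the region vary together across epithelial states and across treatments.

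In an imprinted region a gene is transcribed mainly from the copy inherited from a given parent. In this region the paternal copy is known to give Dlk1, a membrane protein related to the Notch ligands, and Rtl1, a protein gene derived from a retrotransposon that is known for its role in the placenta. The maternal copy is known to give the long non-coding RNAs Meg3, Rian and Mirg, of which Rian hosts small nucleolar RNAs and Mirg hosts a cluster of microRNAs. Dlk1 is best known from fetal tissues and fat precursors, and in lung it has been studied in alveolar type 2 cells that turn into type 1 cells. UMI counts do not separate the parental copies.

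Both a vehicle and a tamoxifen suspension were sequenced, each before and after removal of immune and endothelial cells, which makes 4 groups of 1 library. All mice carried p53frt, Rosa-FSF-CreERT2 and Hnf4aflox, that is, frt-flanked p53, a Flp-activated tamoxifen-inducible Cre and floxed Hnf4a. Lung tumours were started with an adenovirus carrying FlpO under the surfactant protein C promoter, which directs Flp to cells of alveolar type 2 kind, and CreERT2 is available only where Flp has acted. Mice received tamoxifen or vehicle at 10 weeks after infection, and tumours were taken 2 weeks after the injection. The vehicle is called ethanol in some fields and corn oil in others. Macroscopic tumours were dissociated, and part of each suspension was depleted of CD45+ and CD31+ cells on beads. Cells had been frozen, thawed and sorted as live. The portions before and after depletion come from the same suspension and do not replicate each other. The number of animals or tumours in a suspension is not given in the sources used here, so treatment and tumour of origin cannot be told apart. Hnf4a itself was higher in the tamoxifen libraries (83.6 and 80.7 CPM) than in the vehicle libraries (46.2 and 49.2 CPM). The counted end of the transcript need not lie in the floxed exons, so this does not check the deletion, and directions below refer to the libraries as labelled.

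Genes were measured in 7079, 6923, 6111 and 7358 kept cells (vehicle before and after depletion, then tamoxifen before and after it), from libraries of 92644997 to 144994771 UMIs. Pairs of libraries shared from 10 to 18 cell barcodes. Epithelial-like cells numbered 880, 5924, 951 and 6614, and 12 of 12 fixed epithelial markers were seen in over 10% of them in each library. Tumour and non-tumour epithelial cells were not separated. A level is given as CPM, the UMIs of a gene scaled by the total UMIs of the epithelial-like cells, and intervals are exact 95% intervals that cover counting error only. No replicate error and no p-value can be given, since each group is a single library.

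In the GRCm38 assembly, Dlk1 lies at chr12:109452823-109463336 on the plus strand and Meg3 at chr12:109541001-109571726 on the same strand. Rtl1 lies at chr12:109589193-109600330 on the minus strand, followed by Rian at chr12:109603940-109661716 and Mirg at chr12:109729764-109749460, both on the plus strand. No other feature of the tables overlapped any of the 5. The 250 bases before the start of Dlk1 and of Meg3 are shown because these transcripts mark the paternal and the maternal side of the comparison. Capitals mark motif matches, and the sequences are from RefSeq (GRCm38.p6).
Dlk1, chr12:109452573-109452822, plus strand: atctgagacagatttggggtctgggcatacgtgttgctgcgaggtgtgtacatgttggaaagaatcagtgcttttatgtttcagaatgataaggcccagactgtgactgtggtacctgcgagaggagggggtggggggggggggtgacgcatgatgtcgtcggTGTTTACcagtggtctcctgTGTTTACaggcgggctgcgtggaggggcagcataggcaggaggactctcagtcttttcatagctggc
Meg3, chr12:109540746-109540995, plus strand: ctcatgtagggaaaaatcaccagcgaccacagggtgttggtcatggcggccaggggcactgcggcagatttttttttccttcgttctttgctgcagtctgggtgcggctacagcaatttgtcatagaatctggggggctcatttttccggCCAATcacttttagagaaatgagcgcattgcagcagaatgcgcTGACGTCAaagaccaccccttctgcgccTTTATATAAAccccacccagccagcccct
The window before Dlk1 held the forkhead-type motif TGTTTAC at 87 to 81 and at 67 to 61 bases before the start, and 3.17% of 32851 promoter windows of the same length held that motif on either strand. The window before Meg3 held TATAAA on both strands, overlapping at 29 to 20 bases before the start (12.4% of windows), TGACGTCA, the cyclic AMP response element, at 57 to 50 bases (1.55%), and CCAAT at 100 to 96 bases (33.8%). The GC box GGGCGG (32.7% of windows) and the HNF4-type motif CAAAGTCCA (0.384%) were searched on both strands too and these letters were in neither window. The motifs were chosen with the sequences in view, and a match is a description of letters. The windows held 8 (Dlk1) and 10 (Meg3) CpG dinucleotides, against a median of 6 over all windows. RefSeq gave a promoter entry for 4 of the 5 genes, and that of Mirg starts 5217 bases from the GENCODE start.

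Within Rtl1, on the opposite strand, lie 6 microRNA hairpins with 11 mature microRNAs that have 11 different seeds. These microRNAs are known to pair with the Rtl1 transcript, being encoded opposite it. Mature sequences from 4 of the hairpins are shown, with the seed (bases 2 to 8) in capitals.
miR-431-5p: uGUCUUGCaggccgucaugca
miR-433-3p: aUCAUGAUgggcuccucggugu
miR-127-3p: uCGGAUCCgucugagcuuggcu
miR-136-5p: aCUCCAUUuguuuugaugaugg
The spans of Meg3, Rian, Mirg and Rtl1 held the hairpin or a mature sequence of 26 microRNA genes. Of these genes 0 had a feature of its own in the tables, so the microRNAs were not measured. The use of strand in counting is not given in the sources used here. Rtl1 UMIs can therefore include reads from a transcript on the opposite strand, the strand of Meg3.

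Summed over epithelial-like cells, Dlk1 stood at 504 and 446 CPM in the vehicle libraries before and after depletion and at 1123 and 987 CPM in the tamoxifen libraries. Both tamoxifen libraries were above both vehicle libraries, a 2.23-fold difference before depletion (log2 ratio 1.15, interval 1.13 to 1.18) and a 2.21-fold difference after it (1.14, interval 1.13 to 1.16). Ratios are tamoxifen over vehicle with 1 CPM added. A minimum of 10 CPM in at least 1 library of each pair was met by 9007 genes, of which 0.444% were at least 2-fold higher in both pairs, and Dlk1 was among them, as the choice of the set required. All 5 transcripts reached that minimum, and the other 4 did not reach 2-fold in either direction.

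Meg3, the most studied of the maternal RNAs, stood at 1685 and 1849 CPM in vehicle and at 1580 and 1621 CPM in tamoxifen. It was slightly lower in tamoxifen, with log2 ratios of -0.09 (interval -0.11 to -0.07) and -0.19 (-0.20 to -0.18). Rian stood at 434 and 467 CPM in vehicle and at 329 and 381 CPM in tamoxifen, with ratios of -0.40 and -0.30. Mirg stood at 59.9 and 45.8 CPM in vehicle and at 45.1 and 42.4 CPM in tamoxifen, with ratios of -0.40 and -0.11, and its tamoxifen value before depletion lay within 1 CPM of its vehicle value after depletion. Rtl1, the other paternal gene, stood at 11.0 and 17.3 CPM in vehicle and at 8.56 and 11.4 CPM in tamoxifen, with ratios of -0.32 and -0.56. The Rtl1 libraries overlapped between treatments, since the tamoxifen library after depletion lay above the vehicle library before depletion. In these sums Dlk1 was higher and the other 4 were lower in tamoxifen in each pair. With each cell weighted equally, the ratios before depletion were 1.30 for Dlk1, 0.34 for Meg3, -0.050 for Rian, -0.081 for Mirg and 0.47 for Rtl1, so Meg3 and Rtl1 turned. Meg3 also turned, to 0.15, in cells with no UMI of Ptprc, Pecam1, Cdh5, Col1a1, Col1a2 or Col3a1, genes of immune, endothelial and stromal cells, where Rian was -0.22 and Mirg -0.21. A ratio under 0 in both pairs was found for 38.8% of the 9007 genes. Among those genes Dlk1 stood at percentile 99.6 in each pair, while Meg3 stood at percentiles 39.3 and 20.7, Rian at 7.68 and 11.3, Mirg at 7.64 and 31.2, and Rtl1 at 11.7 and 3.38.

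**Figure D1:**
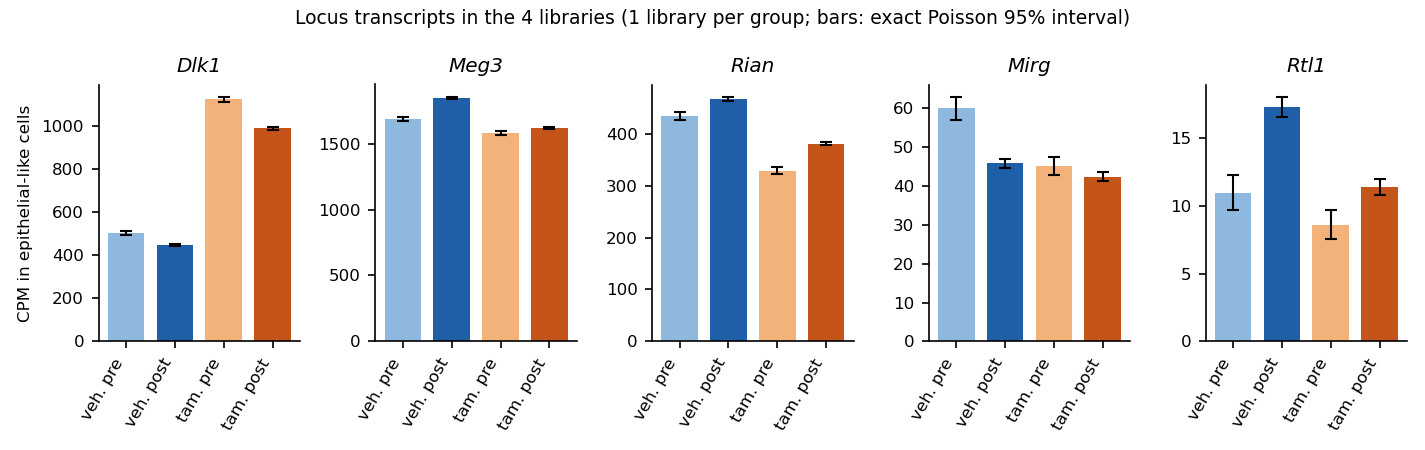
CPM of each transcript in epithelial-like cells (y axis, starting at 0) in the 4 libraries (x axis, 1 bar per library), with exact Poisson 95% intervals as error bars. Dlk1 is the transcript with both tamoxifen bars above both vehicle bars, at 1123 and 987 against 504 and 446 CPM, while Meg3 ranges only from 1580 to 1849 CPM.

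The signal for Dlk1 was uneven across cells. A Dlk1 UMI was found in 26.8% and 37.2% of epithelial-like cells in the vehicle libraries and in 41.5% and 52.1% in the tamoxifen libraries. After thinning each cell to 2000 UMIs these shares were 16.6%, 19.2%, 26.5% and 31.0%. The 10% of cells with the most Dlk1 held 89.6% and 83.7% of all Dlk1 UMIs in vehicle and 76.4% and 68.6% in tamoxifen. Meg3 was spread more widely, with UMIs in 66.1%, 79.7%, 79.1% and 83.5% of cells and with 40.1% to 52.7% of its UMIs in the top 10%. In endothelial-like cells, which served as background for free RNA, 0 of 153, 1.84%, 0.667% and 6.61% of thinned cells had a Dlk1 UMI, and the count of 0 allows a share of up to 1.96%. Median depth was 16621.5 to 28513 UMIs in epithelial-like cells and 7293 to 13978 in endothelial-like cells before thinning.

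The epithelial-like cells were clustered again, with the 5 transcripts left out of the clustering genes, and clusters were numbered by size from E1 to E22. E16 and E21 were set aside, as shallow and as led by macrophage genes. In each treatment a single cluster held much of the Dlk1 signal, and these were different clusters. Cluster E18, led by Grip1 and Magi2, had 41 and 305 cells in vehicle and 0 and 6 in tamoxifen. It was 4.66% and 5.15% of vehicle epithelial-like cells but held 49.8% and 41.7% of their Dlk1 UMIs. Cluster E5, led by Cpe and Tfpi, had 1 and 5 cells in vehicle and 107 and 916 in tamoxifen. It was 11.3% and 13.8% of tamoxifen epithelial-like cells and held 57.4% and 56.1% of their Dlk1 UMIs. Dlk1 reached 4148 and 3025 CPM in E5 and 2864 CPM in E18 after depletion, the highest levels over 47 combinations of cluster and library with at least 50 cells. Meg3 in the same clusters was 2194 and 2107 CPM in E5 and 2614 CPM in E18.

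The maternal transcripts peaked elsewhere. Cluster E12, led by Agr2 and Adgrl3 and present only in vehicle (54 and 447 cells), held 28.3% and 25.1% of vehicle Meg3 UMIs and 2.56% and 2.44% of vehicle Dlk1 UMIs. Its levels were 3878 and 3391 CPM for Meg3 against 105 and 79.6 CPM for Dlk1. E20, led by Ecrg4 and also mostly from vehicle, was high for both transcripts after depletion, with Meg3 at 5053 CPM and Dlk1 at 1135 CPM. E17 had the highest Meg3 (7912 CPM in vehicle and 5624 in tamoxifen after depletion), the highest Rian (2125 and 1350 CPM) and the highest Rtl1 (195 and 78.6 CPM), with Dlk1 at only 138 and 499 CPM. E17 also had a mitochondrial share of 13.1%, a Malat1 share of 5.05% and a median of 6767 UMIs per cell, and the part of these in its levels was not tested. At the low end, E1, led by Cbr2 and the type 2 marker Lyz1, had Dlk1 from 1.59 to 22.3 CPM and Meg3 from 115 to 260 CPM over the 4 libraries.

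**Figure D2:**
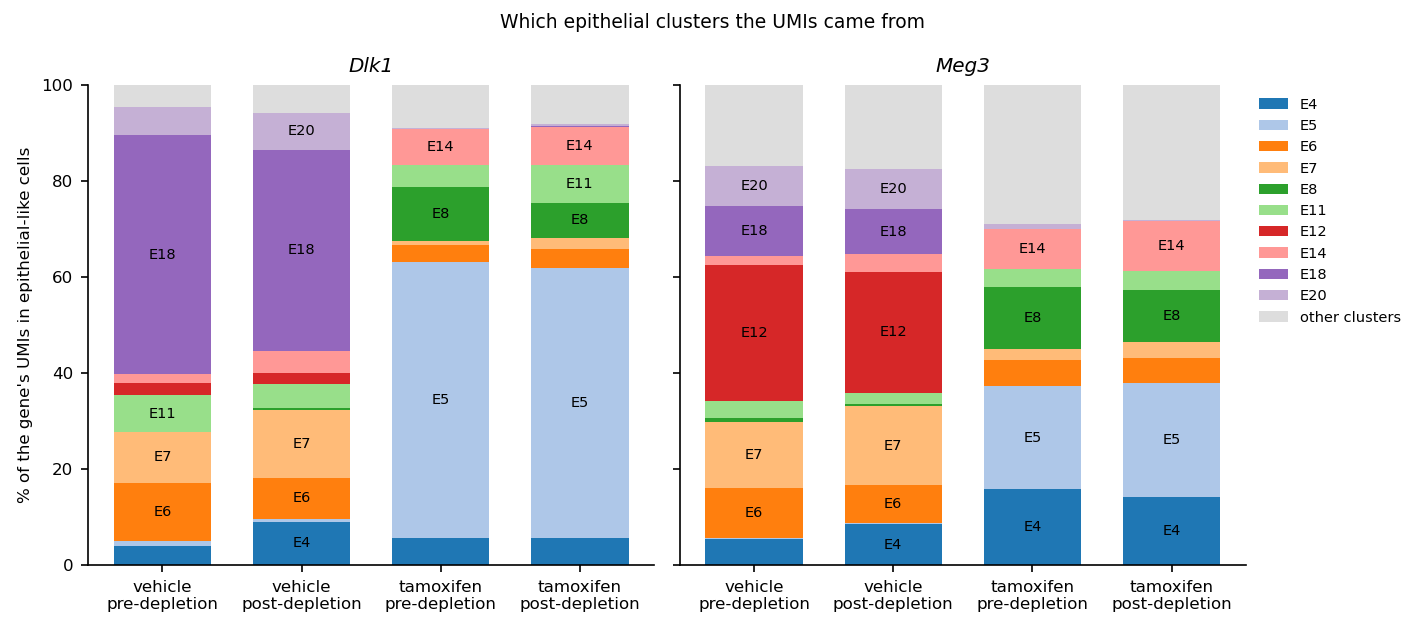
Percentage of the Dlk1 UMIs (left) and of the Meg3 UMIs (right) of epithelial-like cells that came from each cluster, in the 4 libraries; clusters with smaller shares are pooled in grey. E18 holds 49.8% and 41.7% of Dlk1 UMIs in vehicle, E5 holds 57.4% and 56.1% in tamoxifen, and E12 holds 28.3% and 25.1% of Meg3 UMIs in vehicle.

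Because 9 clusters had over 80% of their cells in a single treatment, the summed ratios depend on them. Without E5 the Dlk1 ratio was 0.18 before and 0.26 after depletion, and without E18 it was 2.04 and 1.82. Without both of them it was 1.08 and 0.94, and without all 9 it was 1.16 and 1.11. The ratio of Meg3 without the 9 clusters was 0.46 and 0.23, which turns its direction, and the ratios of Rian (0.15 and 0.24) and Mirg (0.26 and 0.37) turned as well. Rtl1 then had ratios of 0.31 and -0.02. Summed over the clusters that remained, the maternal transcripts were thus not lower in tamoxifen.

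Within single clusters, Dlk1 was higher in tamoxifen in 11 of 11 clusters with at least 50 cells in both libraries after depletion (log2 ratios 0.27 to 1.84, median 0.62) and in 4 of 4 before depletion (1.05 to 2.01). Of all genes considered, 2.93% and 5.87% were higher in every such cluster in those pairs, and 0.766% in both. These ratios come from the contrast by which Dlk1 was picked and are no separate support. In E1, in both pairs, and in E13 Dlk1 lay under the highest other cell class in vehicle and in tamoxifen, so its levels there are read as background. In E3, in both pairs, and in E2 and E9 after depletion, Dlk1 lay above the highest other class in vehicle but not in tamoxifen, where that class's level came mostly from a single cell. The other 6 clusters after depletion, above the other classes in both libraries, had ratios from 0.39 to 1.84. In the cycling cluster E11, led by Ube2c and Ccnb1, Dlk1 was 537 CPM in vehicle and 1304 CPM in tamoxifen, while Meg3 was 1074 and 1094 CPM. In E4, led by the mast cell protease gene Mcpt2 and the mucin gene Muc5b, Dlk1 was 447 and 588 CPM and Meg3 was 1744 and 2390 CPM. In E17 the directions were opposite, Dlk1 being at 138 and 499 CPM and Meg3 at 7912 and 5624 CPM.

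Meg3 was lower in tamoxifen in 8 of the 11 clusters after depletion (log2 ratios from -0.49 to 0.45 over the 11), where 28.5% of all genes were lower in at least 8. Before depletion it was lower in 2 of 4, from -1.17 in E1 to 1.08 in E3. In E1 its tamoxifen level before depletion (115 CPM) lay under the highest other cell class (226 CPM). Counting only clusters above the other classes in both libraries, Meg3 was lower in 6 of 8 after depletion and in 1 of 3 before it (-0.66 to 1.08). Rian was lower in 6 of 11 after depletion, where 51.2% of all genes were lower in at least 6. Mirg had ratios from -1.03 to 0.35 over the 11, with 5 under 0. Rtl1 was lower in 8 of 11, with the interval under 0 in 5, where 28.5% of all genes were lower in at least 8. In the 8 clusters above the other classes, Rian was lower in 5 (-0.65 to 0.32), Mirg in 3 (-0.48 to 0.35) and Rtl1 in 6 (-1.30 to 0.38). The share of all genes was not computed for the Mirg count or for counts restricted to clusters above the other classes. A difference between treatments in Dlk1 was thus accompanied by Meg3 differences of either sign.

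**Figure D3:**
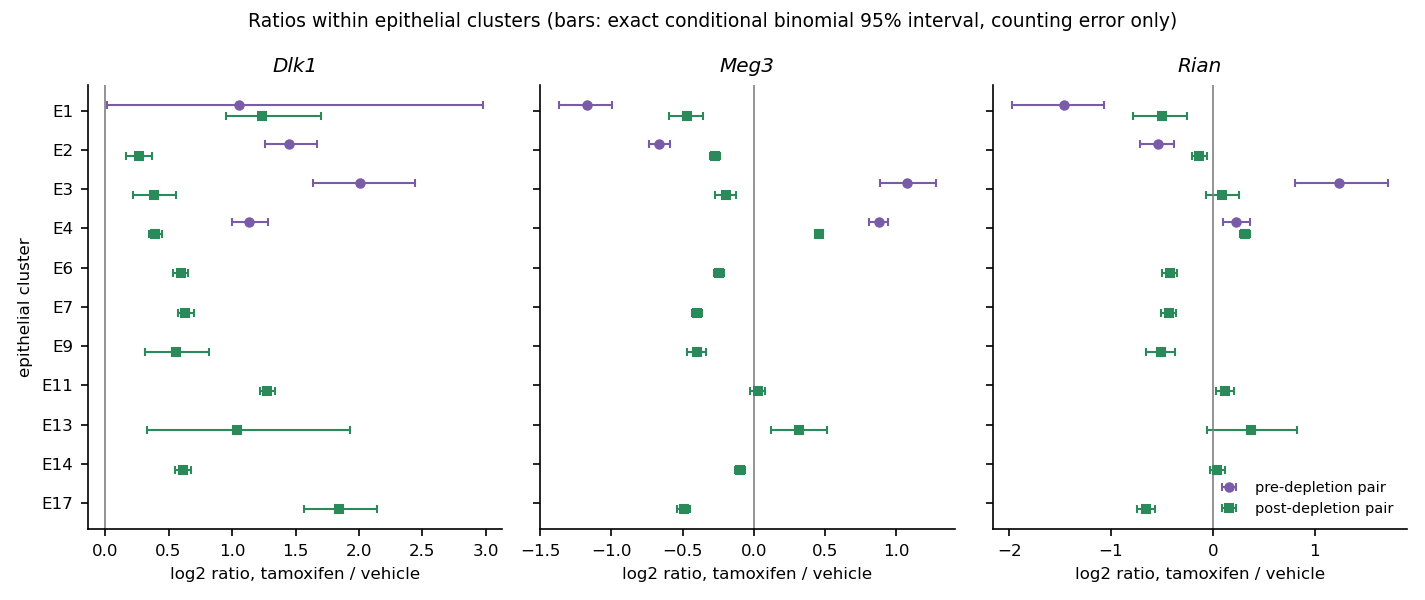
Log2 ratio of tamoxifen over vehicle (x axis) for Dlk1, Meg3 and Rian in each epithelial cluster (y axis) with at least 50 cells in both libraries of a pair; circles are the pair before depletion, squares the pair after it, and bars are exact conditional binomial 95% intervals. All Dlk1 points lie right of 0, while Meg3 runs from -1.17 to 1.08. The lowest Meg3 point is E1 before depletion, where the tamoxifen level lay under the highest other cell class.

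Across the 47 combinations of cluster and library, the maternal transcripts followed each other closely. Pearson's r of log2(CPM + 1) was 0.99 for Meg3 with Rian, 0.97 for Meg3 with Mirg and 0.98 for Rian with Mirg. Rtl1, annotated on the opposite strand and known as a paternal gene, had r of 0.95 with Meg3. Its UMIs can include reads from the strand of Meg3, and the parental copies were not separated. Dlk1 followed them less closely, with r of 0.74 with Meg3, 0.75 with Rian, 0.73 with Mirg and 0.64 with Rtl1. Within the single libraries the Dlk1 and Meg3 coefficient was 0.74 (7 clusters), 0.73 (14), 0.89 (9) and 0.78 (17). The log2 difference between Meg3 and Rian had an SD of 0.24 over the points, against 1.66 for that between Dlk1 and Meg3. Dlk1 also ranged more widely, with an SD of its log2 level of 2.43 against 1.48 for Meg3. The points share libraries, depth and clustering, so these coefficients are descriptions. In 3 clusters (E1, E3 and E9) alveolar markers were among the genes leading against other epithelial clusters. Without them (36 points) r was 0.56 for Dlk1 with Meg3 and 0.98 for Meg3 with Rian. Clusters with such markers leading only against non-epithelial cells stayed in. Among them were E4 (Sftpb and Sftpc), E11 (Sftpd and Sftpc), E13 (Cldn18 and Ager) and E22 (Sftpa1 and Sftpc). E13 was low in both Dlk1 and Meg3, at 8.78 and 169 CPM in vehicle after depletion. In the same library E4 had 447 and 1744 CPM and E11 had 537 and 1074 CPM. Leaving these out as well was not tested.

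**Figure D4:**
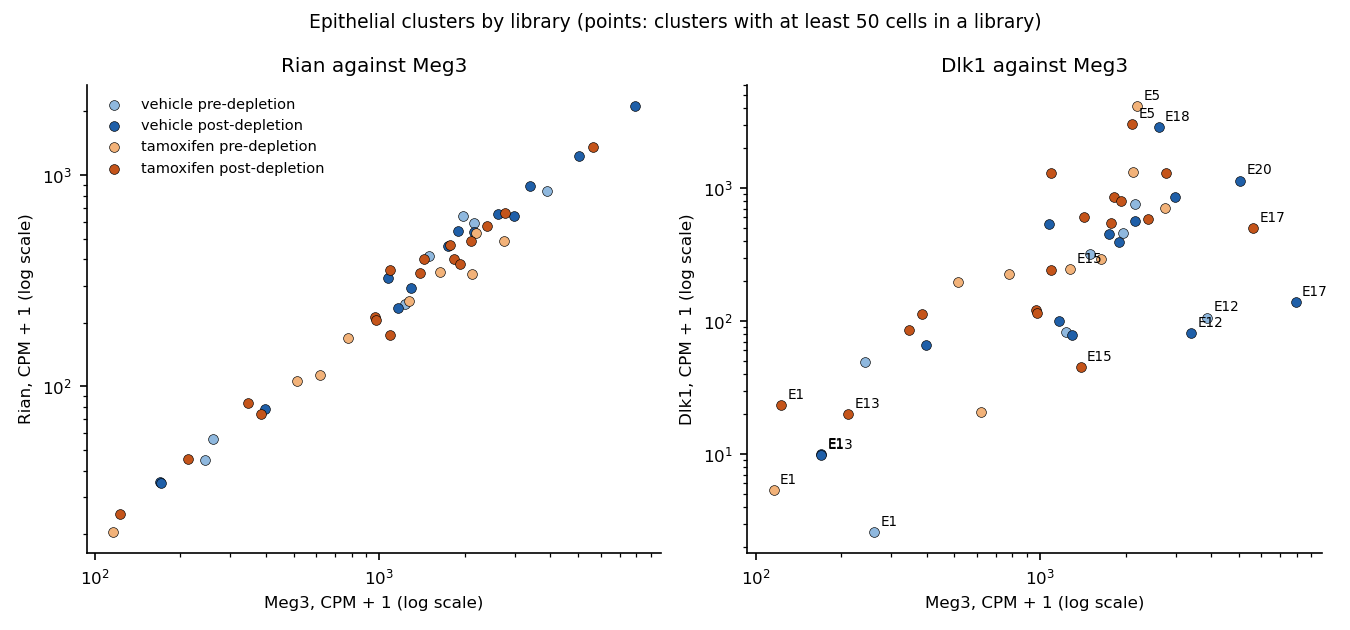
Rian against Meg3 (left) and Dlk1 against Meg3 (right), CPM + 1 on log axes, 1 point for each epithelial cluster in each library with at least 50 cells, coloured by library. The left points fall near a line (r of 0.99), while the right points scatter (r of 0.74), with E5 and E18 high in Dlk1 and E12 and E17 high in Meg3 but lower in Dlk1.

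Among 8914 genes ranked by r with Meg3 over the same points, Rian ranked 1, B830012L14Rik, a non-coding neighbour in the region, came next (0.98), Mirg ranked 3, Rtl1 ranked 4 and Dlk1 ranked 366. The next named genes were Zfp618 and Elmo1 (0.93 each), against a median of 0.19 over all genes. Ranked by r with Dlk1, Meg3 was 44, and the closest genes were Pf4 (0.89), Plbd1 (0.85), Itih2 (0.85), Hhex (0.85) and Tdo2 (0.84), with a median of 0.17. Pf4 is a platelet chemokine, Itih2 encodes a plasma protein chain, Hhex a homeobox factor and Tdo2 a tryptophan-degrading enzyme.

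In single cells thinned to 2000 UMIs, cells with a Dlk1 UMI more often had a Meg3 UMI than cells without. The shares were 90.3% against 42.5% and 90.1% against 55.5% in the vehicle libraries, and 90% against 51.9% and 87.9% against 56.9% in the tamoxifen libraries. Cells of a library share their source, and 7 to 46 shallower cells per library were left out. The gap was smaller within clusters. Within clusters that had at least 20 cells of each kind, the gap was positive in 24 of 27 combinations, but its median was 8.43 percentage points (range -7.21 to 32.2). It was positive in 24 of 27 for Rian, 20 of 27 for Mirg and 13 of 27 for Rtl1. The same counts were not made for other genes, so whether they are particular to these transcripts is not known. In cells thinned to 5000 UMIs, r within clusters was 0.15 to 0.20 for Dlk1 with Meg3 and 0.58 to 0.68 for Meg3 with Rian in the 4 libraries. Within clusters, Meg3 thus varied from cell to cell more closely with Rian than with Dlk1. Counts of both Rian and Dlk1 were sparse, so both coefficients are descriptions. After depletion the mean UMIs per thinned cell were 1.83 for Dlk1 and 1.99 for Rian in vehicle. In tamoxifen they were 3.92 and 1.74. Before depletion Dlk1 had the higher mean in both treatments.

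Set against other cell classes, epithelial-like cells had the highest level of each transcript in each library. The share of all genes that are highest there was not counted, so this is not read as particular to the 5. The next class was endothelial-like or fibroblast-like in each. After depletion only 3 classes had at least 50 cells (epithelial-like, endothelial-like and fibroblast-like), so no other class could come next there. Before depletion 11 classes were compared in vehicle and 10 in tamoxifen. For Dlk1 the next levels were 12.1 and 26.5 CPM in vehicle and 214 and 120 CPM in tamoxifen, and epithelial-like cells were 41.7, 16.8, 5.25 and 8.22 times as high. Each of these next levels came mostly from a single cell, with 16 of 28, 37 of 69, 376 of 386 and 82 of 154 UMIs. Without the cell richest in Dlk1 in each class, a choice made after seeing the data, the next levels were 5.62, 12.4, 15.3 and 57.2 CPM. They belonged to neutrophil-like cells before depletion and to fibroblast-like cells after it, and the factors were 82.8, 35.7, 71.8 and 17.2. For Meg3 the next levels were 226 to 407 CPM and the factors 3.98 to 7.17, or 4.42 to 13.1 without the richest cell of each class. In T-like cells Dlk1 was 3.07 CPM in vehicle and 17.8 CPM in tamoxifen before depletion. A single cell held 37 of the 91 tamoxifen UMIs, and without the richest cell the levels were 2.96 and 10.7 CPM. Of the fixed fibroblast markers, Dcn, which is also a leading gene of the tamoxifen cluster E15, made up most of the summed level in epithelial-like cells. The 9 genes summed to 19.6 and 25.0 CPM in vehicle and 52.1 and 51.0 CPM in tamoxifen, and the 8 without Dcn to 3.43 and 3.72 CPM in vehicle and 2.54 and 2.39 CPM in tamoxifen, with 2 of the 8 at 0 in some library. Their part in the Dlk1 difference was not tested.

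**Figure D5:**
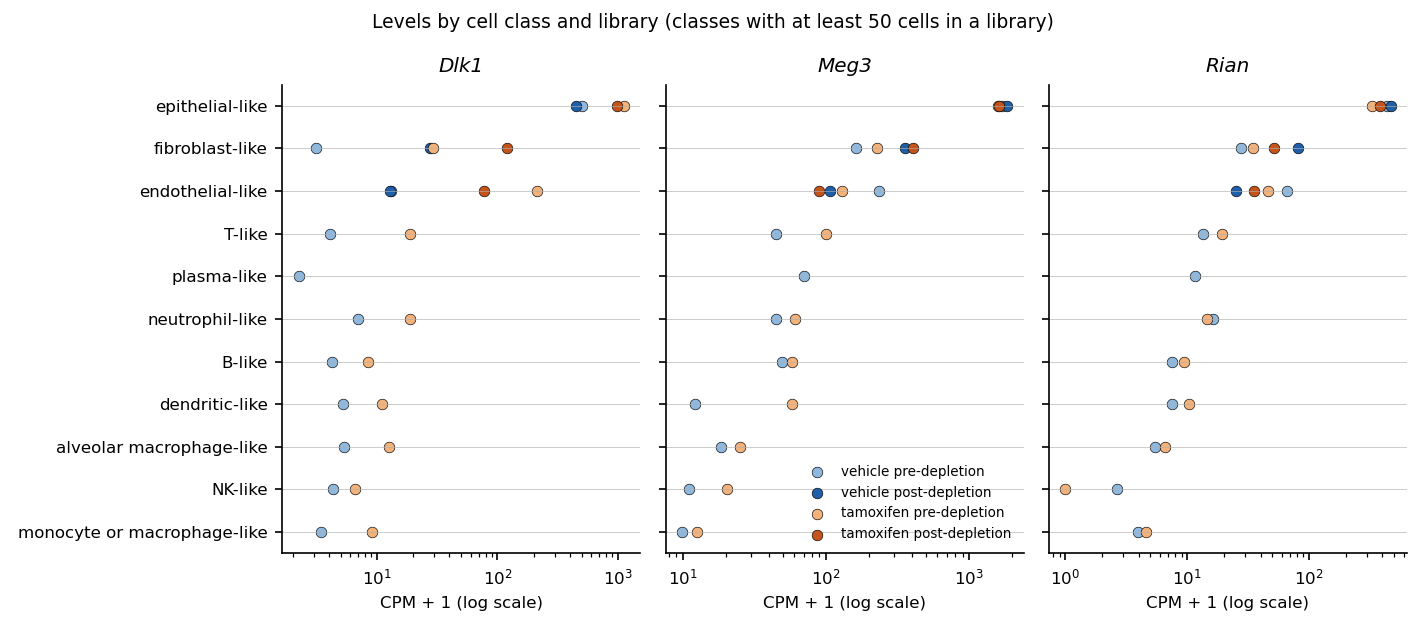
CPM + 1 of Dlk1, Meg3 and Rian (x axis, log scale) in each cell class (y axis), 1 point per library, for classes with at least 50 cells in a library. Epithelial-like cells lie farthest right in every panel, and the next class in each library is fibroblast-like or endothelial-like. In vehicle before depletion, fibroblast-like cells had Dlk1 at only 2.13 CPM, under neutrophil-like cells at 6.02 CPM.

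Most neighbouring genes of the region were counted at low levels. Of 14 features from 500 kb before Dlk1 to 200 kb after Dio3, 2 reached the minimum and 0 were past 2-fold in both pairs, where 1.47% of all genes were. B830012L14Rik was 120 and 119 CPM in vehicle and 88.3 and 97.6 CPM in tamoxifen (ratios -0.43 and -0.29), near the ratios of Rian. Ppp2r5c, a phosphatase subunit, had ratios of 0.01 and 0.20. Dio3, the imprinted deiodinase gene of the region, was listed at 0.20 to 0.57 CPM.

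Imprinted genes of other regions were mostly not past 2-fold. Of 37 such features 18 reached the minimum, with 1 past 2-fold higher and 2 past 2-fold lower in both pairs, where 0.444% and 1.02% of all genes were. Their median ratios were -0.25 and -0.26, against -0.03 and 0.01 over all genes. Dcn, which encodes decorin and is also a fibroblast marker, was 16.2 and 21.3 CPM in vehicle and 49.6 and 48.6 CPM in tamoxifen. Cdkn1c, a cell cycle inhibitor of the maternal copy, was 76.2 and 106.5 CPM in vehicle and 31.9 and 30.0 CPM in tamoxifen (ratios -1.23 and -1.79). Peg3, a paternal zinc finger gene that is also a leading gene of the vehicle cluster E12, was 23.3 and 36.2 CPM in vehicle and 7.39 and 10.00 CPM in tamoxifen (-1.53 and -1.76). The most abundant others were Gnas (0.12 and 0.12), Ppp1r9a (-0.11 and 0.01), Kcnq1ot1 (-0.69 and -0.81) and Airn (-0.40 and -0.27), in log2 ratios. Over the epithelial clusters the imprinted genes had a median r of 0.25 with Dlk1 and 0.39 with Meg3.

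Dlk1 is known as a ligand-like modulator of Notch, so the Notch pathway was examined alongside it. Of 35 listed genes 18 reached the minimum, and 0 were past 2-fold in both pairs, where 1.47% of all genes were, so a count of 0 among 18 says nothing particular of the list. Their median ratios were -0.02 and 0.04, against -0.03 and 0.01 over all genes. The receptor Notch1 had ratios of 0.02 and 0.38 and Notch2 of -0.03 and 0.03, and the ligand Jag1 had 0.33 and 0.23. Among the most abundant, the co-activator genes Maml3 (-0.35 and -0.04) and Maml2 (0.57 and 0.84), the processing genes Psenen (-0.16 and -0.26) and Numb (-0.19 and -0.11), and the target Hes1 (0.36 and 0.12) differed by less than 2-fold.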

How the data were processed

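Single-cell 3′ RNA of 4 lung tumour suspensions was analysed, 1 library per group. Part of the shared genotype is not reported here. Values are deposited as raw UMI counts for every gene in every barcode. The tables were written by Cell Ranger 7.0.1 per the file headers and by 7.2.0, with genome build mm10, per the submitters' processing notes. The annotation release and the use of intronic reads and strand are not given in the sources used here. Coordinates are GENCODE M21 (GRCm38).

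Barcodes were kept from 200 genes upwards and up to 20% mitochondrial UMIs. The automatic Scrublet threshold (scanpy 1.11.5, expected rate 0.06) called 188, 1, 1 and 0 cells and had not worked, so a fixed score of 0.25 was applied to all libraries. Cells were clustered jointly (2000 variable genes without the 5 transcripts, 40 components, 15 neighbours, Leiden resolution 1, igraph 0.11.9), and clusters were called "X-like" from fixed markers. Epithelial-like cells were clustered again. E16 (shallow), E21 (macrophage genes) and a Pyy-led cluster of 918 cells, led also by a mast cell marker, were set aside after the data were seen.

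CPM are UMIs summed over a class or cluster, scaled by its total. Intervals are exact Poisson for CPM, conditional binomial for ratios and Clopper-Pearson for shares, at 95%, and limits for a count of 0 correspond to 3 counts. The size rule (10 CPM, 2-fold the same way in both pairs) is no test. In simulated counts for the comparison of treatments over 8867 genes, it called 50 of 50 genes changed 3-fold, 48 of 48 changed 5-fold and 0 of 8669 left unchanged. These were Poisson counts with unchanged genes at the same rate in all 4 libraries, without variation between animals, tumours or clusters. The simulation checks that the rule works as written and gives no rate of wrong calls in these data. TMM factors came from edgeR 4.0.16. Named genes were the 5 transcripts, the 5 genes with the highest r with Dlk1 and with Meg3, and from each list those past 2-fold and up to 4 others by CPM. B830012L14Rik, Notch1, Notch2, Jag1, Dio3 and Hnf4a were added after their values were seen. The transcripts, lists and markers were chosen with earlier results of these data known.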

Additional observations from a re-analysis of the deposited data

Results flagged for a closer look

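Meg3 and Rian differed between treatments in opposite directions in different epithelial clusters. In E4, led by Mcpt2 and Muc5b, Meg3 was higher in tamoxifen in both pairs, with log2 ratios of 0.88 before and 0.45 after depletion, and Rian likewise, with 0.23 and 0.32. In E1, led by Cbr2 and Lyz1, Meg3 was lower, with -1.17 and -0.47, and Rian was lower, with -1.46 and -0.50. In E2, led by Serpinb2 and Il24, Meg3 was lower, with -0.66 and -0.27, and Rian was lower, with -0.54 and -0.13. The difference between these clusters was not tested, since each group holds 1 library. Meg3 in E1 (115 to 260 CPM) was above the highest other cell class only in vehicle before depletion.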

How the results depend on the processing

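No paired analysis was possible because each group holds 1 library, so no replicate could be left out either. Values are log2 ratios before and after depletion unless stated. For Dlk1, TMM factors gave 1.21 before depletion, median-of-ratios factors 1.21, the mean over cells 1.30 and 1.08, at most 10% mitochondrial UMIs 1.11 and 1.16, a gate on each cell (no UMI of 6 immune, endothelial or stromal genes) 1.34 and 1.08, and leaving out E1, the Lyz1-high cluster, 0.98 and 1.09. Leaving out the 9 unbalanced clusters gave 1.11 after depletion. Choices added after seeing the data gave 1.20 before depletion with the Pyy-led cluster, 1.13 after depletion with E16 and E21 kept, 0.18 and 0.26 without E5, 2.04 and 1.82 without E18, and 1.08 and 0.94 without both. For Meg3, the corresponding values before depletion were -0.038 (TMM), -0.042 (median of ratios), 0.34 (mean over cells), -0.13 (10% mitochondrial), 0.15 (gate), -0.23 (without E1), 0.46 (without the 9), -0.069 (with the Pyy-led cluster), -0.14 (without E17), -0.20 (without E5), -0.047 (without E18) and -0.15 (without both). After depletion they were -0.18 (median of ratios), -0.063 (mean over cells), -0.21 (doublet score 0.15), -0.10 (gate), -0.23 (without E1), 0.23 (without the 9), -0.20 (without E17), -0.29 (without E5), -0.15 (without E18) and -0.25 (without both). The direction of Meg3 before depletion thus depended on the setting. Without the 9 clusters Rian was 0.15 and 0.24 and Mirg 0.26 and 0.37, and Rtl1 before depletion was 0.31, and 0.47 as a mean over cells. The cause of these turns was not tested. The scaling factors moved the median of all genes by less than 0.1.

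Without E1, E3 and E9, r was 0.56 for Dlk1 with Meg3 and 0.56 for Dlk1 with Rian. For Meg3 with Rian r was 0.98 in that setting, at resolution 2, with the transcripts kept for clustering and with all imprinted genes left out, and 0.99 with at least 100 cells per point. The SD of Meg3 was 1.26 at resolution 0.5, 1.60 at resolution 2 and 1.64 with the transcripts kept for clustering. Dlk1 was higher in tamoxifen in 10 of 11, 20 of 21, 14 of 14 and 16 of 17 comparisons within clusters at resolution 0.5, at resolution 2, with the transcripts kept and with imprinted genes left out. The gap in Meg3-positive cells after depletion was 28.7 points in vehicle and 27.2 in tamoxifen at 5000 UMIs, 24.0 and 21.2 unthinned, and 39.4 and 33.8 under the gate, and unthinned it was 25.0 in tamoxifen before depletion. At 1.5-fold, 4 imprinted genes were lower, and 112 of all genes were higher and 207 lower. With a minimum of 2 CPM 172 genes were lower, and with none 186. Over all alternatives 180 values stayed within their interval or spread, or for counts of genes and of class comparisons within 1.5-fold of the main value. Of the others, 88 moved beyond that limit and 10 changed sign. Depth limits Rtl1 most, at 256 to 2155 UMIs per library.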

Other observations

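The Pyy-led cluster that was left unnamed had Dlk1 at 30.2 and 43.4 CPM in vehicle and at 194 and 136 CPM in tamoxifen, with Meg3 at 602, 709, 570 and 491 CPM. It held 50 and 415 vehicle cells and 40 and 413 tamoxifen cells. E15, led by Plppr1 and Lypd2 and mostly from tamoxifen, had Dlk1 at 243 and 44.0 CPM and Meg3 at 1273 and 1391 CPM before and after depletion, so the portions of a single suspension differed for Dlk1 in this cluster. E10, led by Adarb2 and Cpne4 and also mostly from tamoxifen, had Dlk1 at 294 and 544 CPM and Meg3 at 1635 and 1770 CPM.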
